A study of Mus musculus with 6 samples.

Results

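The acute-phase proteins are plasma and secreted proteins whose production changes during inflammation, and 10 of their genes were followed here in Kupffer cells, the macrophages resident in liver sinusoids: Saa1, Saa2, Saa3, Orm1, Orm2, Hp, Hpx, Lcn2, Lbp and Itih4. They were picked by gene symbol from the 15458 rows of the count table, and all 10 were present, each on a single row, and all 10 passed the filter on low counts that left 13120 genes. Messenger RNA was sequenced from cells sorted by flow cytometry out of the livers of C57BL/6 mice labelled wild type that carried tumours of Hepa1-6, a mouse hepatoma line. In the KC_Epo group (3 libraries) the tumour cells overexpressed erythropoietin, the hormone that drives red cell formation, and in the KC_EV group (3 libraries) they held the empty vector. Both groups were taken at day 18 after implantation, so both are tumour-bearing, and no library from a mouse without a tumour was analysed here. The age of the mice is not given in the labels. They also do not say whether a library came from 1 animal or from a pool, so the spread between libraries may be partly technical.

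In the textbook acute-phase response, IL-6, IL-1 and TNF, released largely by macrophages, act on hepatocytes. There STAT3, NF-kB and C/EBP factors raise transcription of positive acute-phase proteins, while negative ones such as albumin and transthyretin decline. Most of the genes followed here are made mainly by hepatocytes. Saa3 is in the mouse also made by macrophages, and Lcn2 by neutrophils, macrophages and stressed epithelia. In a bulk sample, fewer cells of a type and less RNA per cell cannot be told apart.

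The serum amyloid genes and the orosomucoid genes are small families of near copies, which bears on how their reads can be assigned. Saa1, Saa2 and Saa3 lie on mouse chromosome 7, with Saa1 next to Saa2 in the RefSeq order, and Orm1 and Orm2 lie on chromosome 4 on either side of Orm3. RefSeq promoter windows were at hand for 7 of the 10 genes (not for Orm1, Hp or Lbp). The stretches from 250 to 51 bases upstream of the RefSeq start are shown for the serum amyloid genes, whose members differed in direction between the groups, and for Orm2, which had the largest fold change. Coordinates are those of GRCm38.p6 and not of GRCm39, the build named in the submitters' processing notes. Capitals mark matches to the C/EBP motif TTNNGCAA on either strand.
Saa1, chr7:46743031-46743230, minus strand: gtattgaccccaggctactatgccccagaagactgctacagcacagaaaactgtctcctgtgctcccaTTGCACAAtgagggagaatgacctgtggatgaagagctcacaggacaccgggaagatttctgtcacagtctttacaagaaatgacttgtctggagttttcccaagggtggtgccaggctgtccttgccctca
Saa2, chr7:46751583-46751782, plus strand: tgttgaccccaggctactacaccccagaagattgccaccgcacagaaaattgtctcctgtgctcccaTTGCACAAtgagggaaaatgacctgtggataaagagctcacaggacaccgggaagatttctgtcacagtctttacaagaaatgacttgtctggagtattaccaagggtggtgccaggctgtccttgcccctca
Saa3, chr7:46715727-46715926, minus strand: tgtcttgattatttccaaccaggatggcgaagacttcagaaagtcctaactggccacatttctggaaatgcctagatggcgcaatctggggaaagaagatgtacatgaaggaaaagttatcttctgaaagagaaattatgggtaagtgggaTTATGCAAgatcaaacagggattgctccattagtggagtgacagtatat
Orm2, chr4:63362199-63362398, plus strand: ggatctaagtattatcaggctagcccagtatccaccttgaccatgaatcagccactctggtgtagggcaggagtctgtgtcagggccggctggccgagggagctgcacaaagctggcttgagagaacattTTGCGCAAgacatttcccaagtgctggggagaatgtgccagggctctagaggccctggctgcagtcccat
Over the 250 upstream bases, Saa1 and Saa2 were 94.8% identical, whereas Saa3 was 48.9% identical to Saa1 and 47.9% to Saa2. The C/EBP motif had a match in 6 of the 7 windows (Saa1, Saa2, Saa3, Orm2, Hpx and Lcn2), against 9.56% of all 32851 windows in the RefSeq table. The STAT motif TTCNNNGAA, which is its own reverse, had a match in 1 of the 7 windows, that of Itih4, against 7.02% of all windows. The NF-kB motif, spelled as GGGA, any 4 bases and CC on either strand, had a match in 0 of the 7, against 17.6% of all windows. The Lcn2 window overlaps annotated exons of Lcn2 itself in GENCODE and so holds transcribed sequence under another start. These matches describe letters in the windows and not bound sites. The transcripts of Saa1 and Saa2 were 93.9% identical, those of Orm1 and Orm2 91.0%, and that of Saa3 was 61.6% identical to Saa1. Of the 50-base words in the Saa1 transcript 13.2% occurred exactly in Saa2, of those in Orm1 20.4% occurred in Orm2, and of those in Saa1 1.61% occurred in Saa3. Reads of Saa1 and Saa2, and of Orm1 and Orm2, can therefore be shared, which leaves the value of each single gene uncertain.

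The libraries held between 23201076 and 33280754 counts. The 10 genes together took 0.318%, 0.111% and 0.200% of the counts in KC_Epo 1 to 3, and 0.0402% to 0.0546% in the KC_EV libraries. All 14 Kupffer cell markers were detected in every library, and their summed level was 44510, 48617 and 45643 CPM (counts per 1e6, scaled by TMM) in KC_Epo 1 to 3 and 28477 to 30845 CPM in KC_EV. By the edgeR test 10 of the 14 were higher and 1 lower, against 16.9% and 15.4% of all genes tested, and 3 did not pass. The lower one, named after its values were seen, was Adgre1, with a log2 fold change of -0.72 ± 0.11 (SE). Hepatocyte transcripts were present too. The 24 hepatocyte markers, none of them at 0 in any library, summed to 19358, 5453 and 11444 CPM in KC_Epo 1 to 3 and to 2423, 2996 and 2730 CPM in KC_EV 1 to 3. Alb, which encodes albumin, supplied 71.1% to 75.8% of each sum. Of these markers 11 of 24 passed the edgeR test as higher and 0 as lower, against 16.9% and 15.4% of all genes tested, and their log2 fold changes had a median of 0.96. The 12 sinusoidal endothelial markers summed to 1625 to 2546 CPM in KC_Epo and 4428 to 5325 CPM in KC_EV, and the 9 erythroid markers in the table to 606 to 1109 CPM and 33.5 to 43.1 CPM.

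The list was drawn up with this comparison already known, so the levels and fold changes of the 10 genes describe it and no test is read from them. In KC_Epo, 8 of the 10 were higher in every library than in any KC_EV library, 1 (Saa3) was lower in every library, and 1 (Lcn2) overlapped. Among all genes tested 48.3% did not overlap between the groups. In the edgeR quasi-likelihood fit over all genes, 9 of the 10 had an adjusted p under 0.05, 8 higher and 1 lower, where 32.3% of all genes did, 16.9% higher and 15.4% lower. That count was 3 without KC_Epo 3, 4 without KC_EV 1, 4 without KC_EV 2 and 3 without KC_EV 3. It stayed at 9 without KC_Epo 1 or without KC_Epo 2. A log2 fold change above 2 was fitted for 7 of the 10 and for 1.36% of all genes tested. The median log2 fold change over the 10 was 2.41, against -0.0045 over all genes tested. All 10 had their highest KC_Epo value in KC_Epo 1 and their lowest in KC_Epo 2, the order of the hepatocyte marker sum, which 26.7% of all tested genes also had. The part of the hepatocyte transcripts in these differences was not tested.

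**Figure D1:**
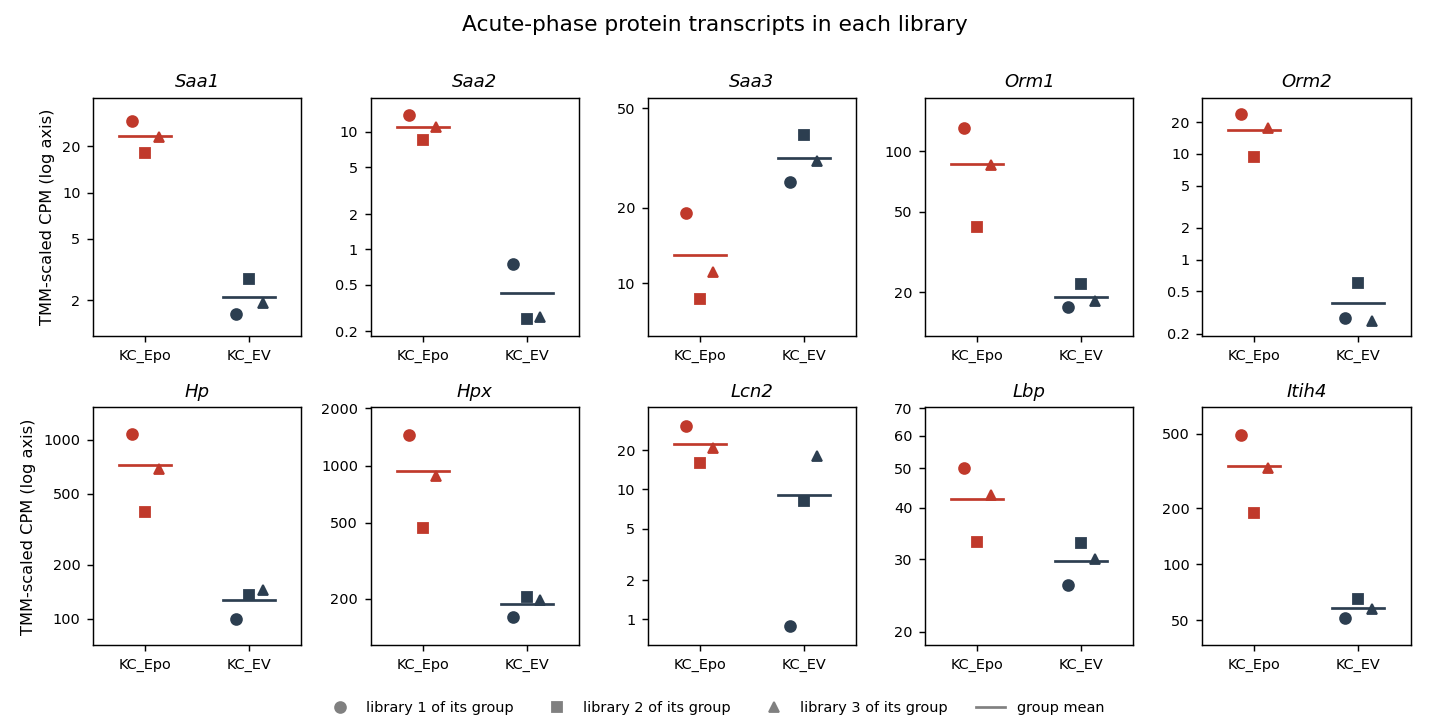
Level of each of the 10 acute-phase genes in TMM-scaled CPM (log axis, scaled per panel) in the 3 KC_Epo and 3 KC_EV libraries, with lines at the group means. KC_Epo lies above KC_EV without overlap for 8 genes, below it for Saa3, and overlaps it for Lcn2, whose KC_EV values run from 0.883 to 18.2 CPM.

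The serum amyloid A proteins travel on high-density lipoprotein and attract leukocytes. Saa1, with Saa2 the main serum amyloid of the acute-phase plasma, had 29.3, 18.1 and 23.01 CPM in KC_Epo 1 to 3, against 1.64, 2.75 and 1.92 CPM in KC_EV 1 to 3. Every KC_Epo library lay several-fold above every KC_EV library, and the log2 fold change was 3.48 ± 0.23 (SE). Saa2 had 13.9, 8.53 and 10.98 CPM in KC_Epo and 0.757, 0.256 and 0.266 CPM in KC_EV, from 937 and 41 counts in all, a log2 fold change of 4.70 ± 0.39, or 5.39 without KC_EV 1. Within KC_EV the Saa2 value of KC_EV 1 stood above the other two, on 24 counts against 8 and 9. Of the counts on Saa1 and Saa2 together, Saa2 held 32.1%, 32.0% and 32.3% in KC_Epo and 31.6%, 8.51% and 12.2% in KC_EV.

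Saa3, which mouse macrophages also make, went the other way. It had 19.2, 8.62 and 11.1 CPM in KC_Epo, against 25.4, 39.2 and 30.7 CPM in KC_EV, a log2 fold change of -1.29 ± 0.35 (SE). The groups did not overlap, with KC_Epo 1 nearest to KC_EV 1. Saa3 held 34.8% ± 4.10 of the counts on Saa3 and Saa1 together in KC_Epo and 93.8% ± 0.348 in KC_EV (SD, n = 3 each), so the predominant serum amyloid transcript of the pair differed between the groups. The log2 fold change of Saa3 ran from -1.69 to -1.05 over the 6 fits that left out a library.

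The orosomucoids, or alpha-1-acid glycoproteins, bind drugs and lipids in plasma. Orm1 had 131, 42.0 and 85.6 CPM in KC_Epo 1 to 3, against 17.0, 21.9 and 18.1 CPM in KC_EV 1 to 3, a log2 fold change of 2.18 ± 0.49 (SE). The lowest KC_Epo library was less than 2-fold above the highest KC_EV library. Orm2 had 24.0, 9.43 and 17.5 CPM in KC_Epo and 0.284, 0.607 and 0.266 CPM in KC_EV, from 1426 and 37 counts, a log2 fold change of 5.46 ± 0.49, the largest of the 10. Orm2 held 15.5%, 18.3% and 17.0% of the counts on the 2 genes in KC_Epo, and 1.64%, 2.695% and 1.44% in KC_EV, so the share was far apart between the groups and close within each.

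Hp encodes haptoglobin, which captures free hemoglobin, and Hpx encodes hemopexin, which captures free heme. Hp had 1081, 394 and 683 CPM in KC_Epo 1 to 3, against 99.7, 137 and 145 CPM in KC_EV 1 to 3, a log2 fold change of 2.4995 ± 0.45 (SE). Hpx had 1442, 470.1 and 887 CPM in KC_Epo and 159.7, 205 and 197 CPM in KC_EV, a log2 fold change of 2.32 ± 0.48. Both were higher in every KC_Epo library, and both varied about 3-fold within KC_Epo, with a ratio of highest to lowest library of 2.74 for Hp and 3.07 for Hpx, against 1.46 and 1.28 within KC_EV. Itih4, a heavy chain of the inter-alpha-trypsin inhibitor family, had 496, 189 and 329.6 CPM in KC_Epo and 51.4, 65.4 and 57.7 CPM in KC_EV, a log2 fold change of 2.54 ± 0.42.

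Lbp, which carries bacterial lipopolysaccharide to CD14, differed least. It had 50.2, 33.1 and 42.9 CPM in KC_Epo 1 to 3 and 25.9, 32.9 and 30.0 CPM in KC_EV 1 to 3, a log2 fold change of 0.50 ± 0.15 (SE). The groups did not overlap, but KC_Epo 2 and KC_EV 2 were nearly level. Lcn2 encodes lipocalin 2, which withholds iron from bacteria by binding their siderophores. It had 30.6, 15.9 and 20.7 CPM in KC_Epo and 0.883, 8.09 and 18.2 CPM in KC_EV, a log2 fold change of 1.31 ± 1.01 with a 95% interval of -1.43 to 4.04, so the interval included 0. The log2 fold change of Lcn2 was 0.77 without KC_EV 1 and 2.32 without KC_EV 3. Of the 14 neutrophil markers, 10 had the order of Lcn2 in KC_EV 1 to 3, and Csf3r, Cxcr2, Ly6g and Mmp8 did not. The share of all genes with that order was not computed, and Hp had it too. Among those 10 markers, and chosen after their values were seen, were Ngp and S100a8. Ngp, a granule protein, had 0.694, 44.1 and 89.5 CPM in KC_EV 1 to 3, and S100a8, a calcium-binding alarmin, 0.631, 21.3 and 40.4 CPM. In KC_Epo 1 to 3, Ngp had 6.68, 4.92 and 5.79 CPM and S100a8 4.88, 4.67 and 5.33 CPM. The 14 neutrophil markers summed to 397, 300.3 and 337 CPM in KC_Epo and to 269, 448 and 648 CPM in KC_EV, and Cxcr2 and Ly6g were at 0 in at least 1 library. Of the 12 markers tested, 0 passed the edgeR test in either direction, against 32.3% of all genes tested. Many of them varied widely within KC_EV, as Ngp and S100a8 did, so this 0 does not show that their levels were the same. The part of the neutrophil markers in the Lcn2 values was not tested.

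**Figure D2:**
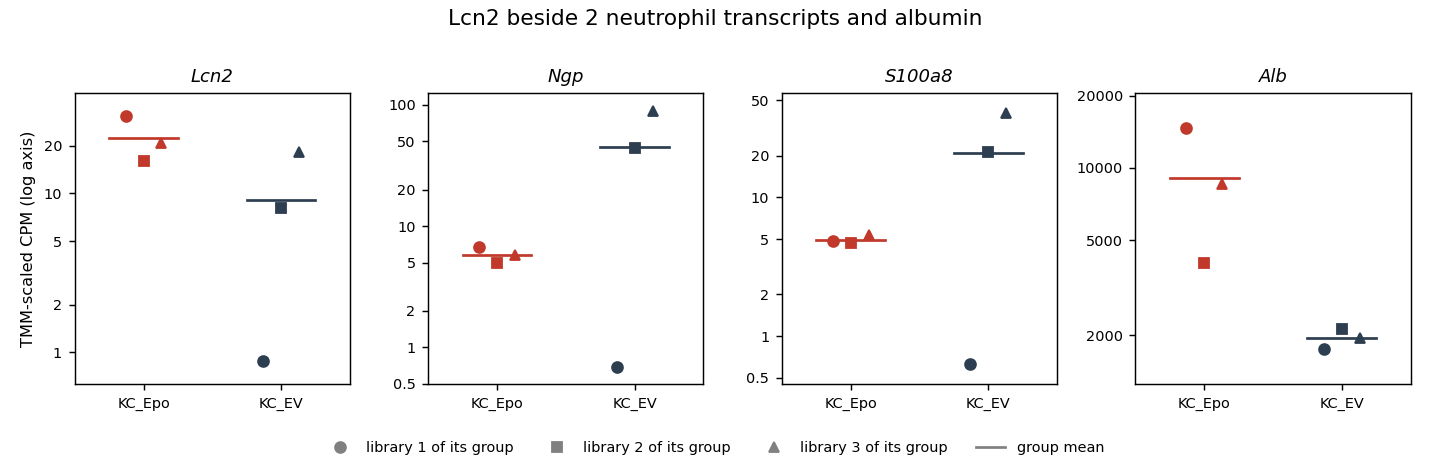
Lcn2, 2 neutrophil transcripts (Ngp and S100a8) and Alb in TMM-scaled CPM (log axis, scaled per panel) by library, with lines at the group means. KC_EV 1 is lowest and KC_EV 3 highest for Lcn2, Ngp and S100a8, while in KC_Epo Ngp stays between 4.92 and 6.68 CPM as Lcn2 runs from 15.9 to 30.6 CPM.

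Per kilobase of transcript, Hpx was the most abundant of the 10 in both groups, at 623 ± 325 CPM per kb in KC_Epo and 125 ± 16.0 CPM per kb in KC_EV (SD, n = 3 each). Hp followed at 535 ± 256 and 94.5 ± 17.9 CPM per kb in KC_Epo and KC_EV. Their ranges overlapped in KC_Epo and, in KC_EV, ran from 106.5 to 136 for Hpx and 74.2 to 108 for Hp, and Hpx lay above Hp in each of the 6 libraries. The third place was held by Itih4 in KC_Epo, at 114 ± 51.5 CPM per kb and level with Orm1 at 111 ± 57.4. In KC_EV it was held by Saa3, at 57.2 ± 12.5 CPM per kb. Saa1, Lcn2, Saa3, Orm2, Saa2 and Lbp lay between 16.7 and 38.6 CPM per kb in KC_Epo, and the ranges over libraries of neighbours in this order overlapped. In KC_EV, Saa2 and Orm2 were the least abundant, at 0.703 ± 0.473 and 0.498 ± 0.248 CPM per kb.

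Since hepatocyte transcripts differed between the groups in the same libraries, each gene was also read relative to the summed hepatocyte markers, as counts per 1000 counts of that sum. The values are given without a test, because the same comparison chose the genes. The sum was higher in every KC_Epo library, so a gene with level CPM comes out lower in KC_Epo on this scale. The share of all genes without overlap on this scale was not computed. Orm1 had 6.76, 7.69 and 7.48 per 1000 in KC_Epo 1 to 3 and 7.01, 7.32 and 6.64 per 1000 in KC_EV 1 to 3. The groups overlapped and the mean log2 difference was 0.064, so Orm1 and the hepatocyte sum differed between the groups by similar amounts. With Ttr alone as the denominator, Orm1 was higher in KC_Epo without overlap, by 0.29 on the log2 scale. Hpx had 74.5, 86.2 and 77.5 per 1000 against 65.9, 68.3 and 72.0, and Hp 55.8, 72.2 and 59.7 against 41.2, 45.6 and 53.2. Itih4 had 25.6, 34.7 and 28.8 per 1000 in KC_Epo against 21.2, 21.8 and 21.1 in KC_EV. These 3 were higher in KC_Epo without overlap, by 0.21 to 0.46 on the log2 scale, although with Alb alone as the denominator Hp and Hpx overlapped.

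Saa1, Saa2 and Orm2 were higher in KC_Epo by more than the hepatocyte sum. Saa1 had 1.52, 3.33 and 2.01 per 1000 in KC_Epo 1 to 3 and 0.676, 0.918 and 0.703 per 1000 in KC_EV 1 to 3. Saa2 had 0.715, 1.56 and 0.960 per 1000 in KC_Epo and 0.312, 0.0854 and 0.0973 per 1000 in KC_EV, and Orm2 1.24, 1.73 and 1.53 per 1000 against 0.117, 0.203 and 0.0973. Their mean log2 differences were 1.51, 2.90 and 3.49, with no overlap. Lbp and Saa3 were lower on this scale. Lbp had 2.59, 6.07 and 3.75 per 1000 in KC_Epo and 10.7, 10.99 and 11.003 per 1000 in KC_EV, and Saa3 0.989, 1.58 and 0.972 per 1000 against 10.5, 13.1 and 11.2. The sign change of Lbp from the CPM scale follows from the division. Its log2 fold change of 0.50 in CPM was smaller than the mean log2 difference of the sum, 1.98. Lcn2 overlapped on both scales. With Alb or Ttr alone as the denominator, Saa1, Saa2 and Orm2 were again higher and Saa3 and Lbp lower without overlap.

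**Figure D3:**
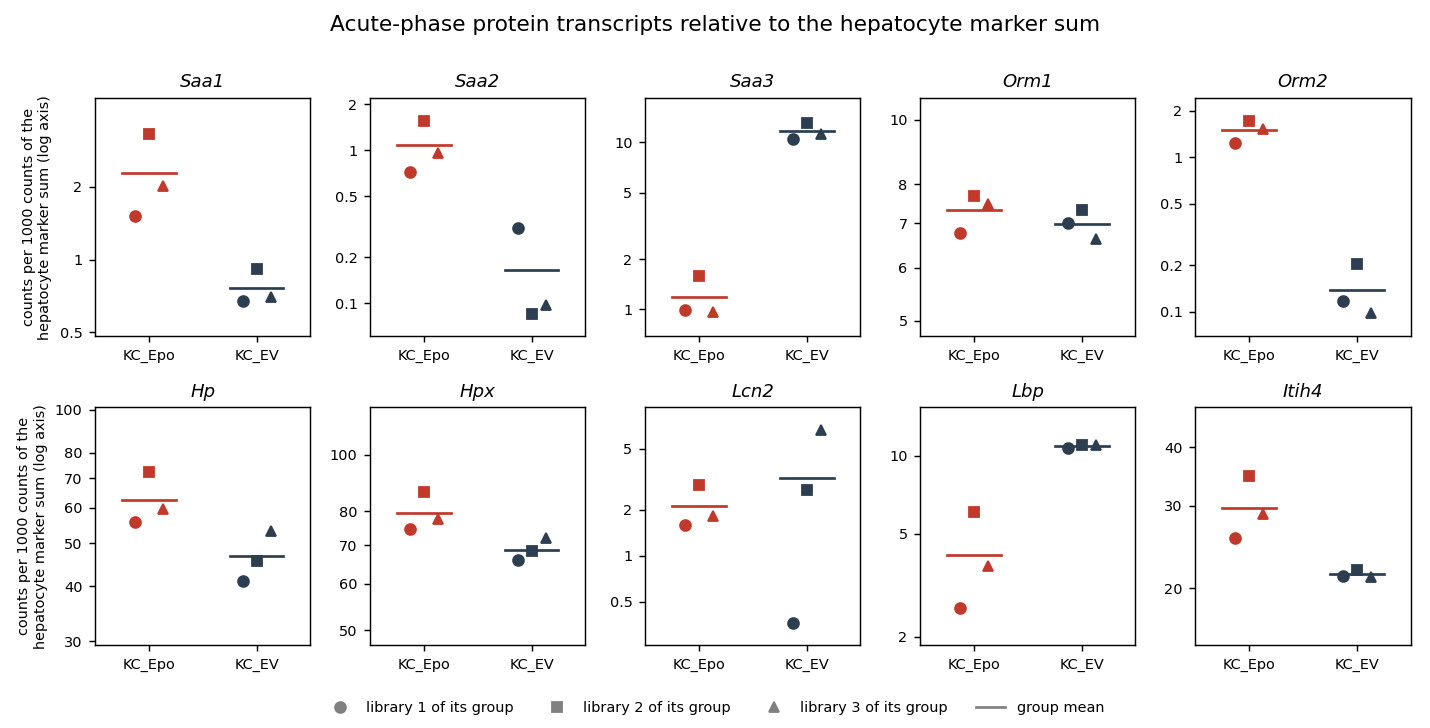
Counts of each of the 10 genes per 1000 counts of the hepatocyte marker sum (log axis, scaled per panel) by library, with lines at the group means. Orm1 lies at about 7 per 1000 in all 6 libraries, Saa1, Saa2 and Orm2 are higher in KC_Epo, and Saa3 and Lbp are lower in KC_Epo.

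Other positive acute-phase genes, a list of 30 of which 29 were tested, had 16 members that rose and 1 that fell by the edgeR test (58.6% past the threshold, against 32.3% of all genes), and a median of 2.02 for the log2 fold change. The count past the threshold was 10 without KC_Epo 3, 10 without KC_EV 1, 6 without KC_EV 2 and 7 without KC_EV 3. Over all genes tested it also fell, from 4234 to 2728, 3642, 2919 and 3010 in the same order of omissions. For the list it was 16 without KC_Epo 1 and 25 without KC_Epo 2. C4b, a complement component, rose by 0.93 ± 0.08 (SE, edgeR adjusted p = 4.44e-06), and Mbl2, a mannose-binding lectin, by 2.18 ± 0.34 (edgeR adjusted p = 0.0041). Serpina3n, a protease inhibitor induced strongly in mouse inflammation, had 112, 41.9 and 71.3 CPM in KC_Epo and 8.95, 12.1 and 10.9 CPM in KC_EV, a rise of 2.82 ± 0.44 on the log2 scale (edgeR adjusted p = 0.0122). The Serpina3n call was lost without KC_EV 2 or KC_EV 3. Fgb, a fibrinogen chain, rose by 2.05 ± 0.50, a call lost when any 1 library other than KC_Epo 2 was left out, whereas C3, the central complement component, did not pass at 1.21 ± 0.41 (edgeR adjusted p = 0.0927). C3 passed with the non-robust fit, with DESeq2, with limma-voom and without KC_Epo 2. Orm3, the third orosomucoid gene, had 75 counts in KC_Epo and 2 in KC_EV, 43.2-fold in CPM (95% interval from counting alone 11.5 to 363). The member that fell was Hamp, which encodes hepcidin, the hormone that blocks iron export, with 1 count in KC_Epo and 242 in KC_EV, a ratio of 0.00476 (95% interval from counting alone 0.00012 to 0.0268).

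Relative to the hepatocyte sum, the 27 of these genes with a count in every library had a median log2 difference of -0.13, with 5 higher and 11 lower in KC_Epo without overlap. No share of all genes was computed on this scale. Since the sum itself was higher in every KC_Epo library, genes with nearly level CPM count among the lower ones. The 5 that were higher, named here after their values were seen, were Apcs, which encodes serum amyloid P and had 2.62, 3.38 and 3.02 per 1000 in KC_Epo against 1.29, 0.864 and 1.01 per 1000 in KC_EV, and Serpina3m, Fgl1, Serpina3n and Itih3, with log2 differences of 0.27 to 0.90.

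Negative acute-phase genes moved the same way as the positive ones on the CPM scale. All 10 of the list rose by the edgeR test, the median being 2.18 on the log2 scale, while 16.9% of all genes tested rose. Alb had 14665, 3996 and 8589 CPM in KC_Epo and 1753, 2129 and 1950.3 CPM in KC_EV, a rise of 2.22 ± 0.54 on the log2 scale (SE, edgeR adjusted p = 0.0409). Ttr, transthyretin, rose by 1.90 ± 0.47, Rbp4, the retinol carrier, by 2.17 ± 0.48, and Serpina6, the corticosteroid carrier, by 2.79 ± 0.58. Trf, transferrin, at 1.28 ± 0.11 and Igf1, a growth factor that macrophages also make, at 1.14 ± 0.08 were the only 2 of the 10 to pass whichever library was left out. The count was 10 without KC_Epo 2, 4 without KC_Epo 1 and 2 without KC_Epo 3, KC_EV 1, KC_EV 2 or KC_EV 3. Over all other positive and negative acute-phase genes tested, 26 of 29 and 9 of 10 were highest in KC_Epo 1 and lowest in KC_Epo 2.

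**Figure D4:**
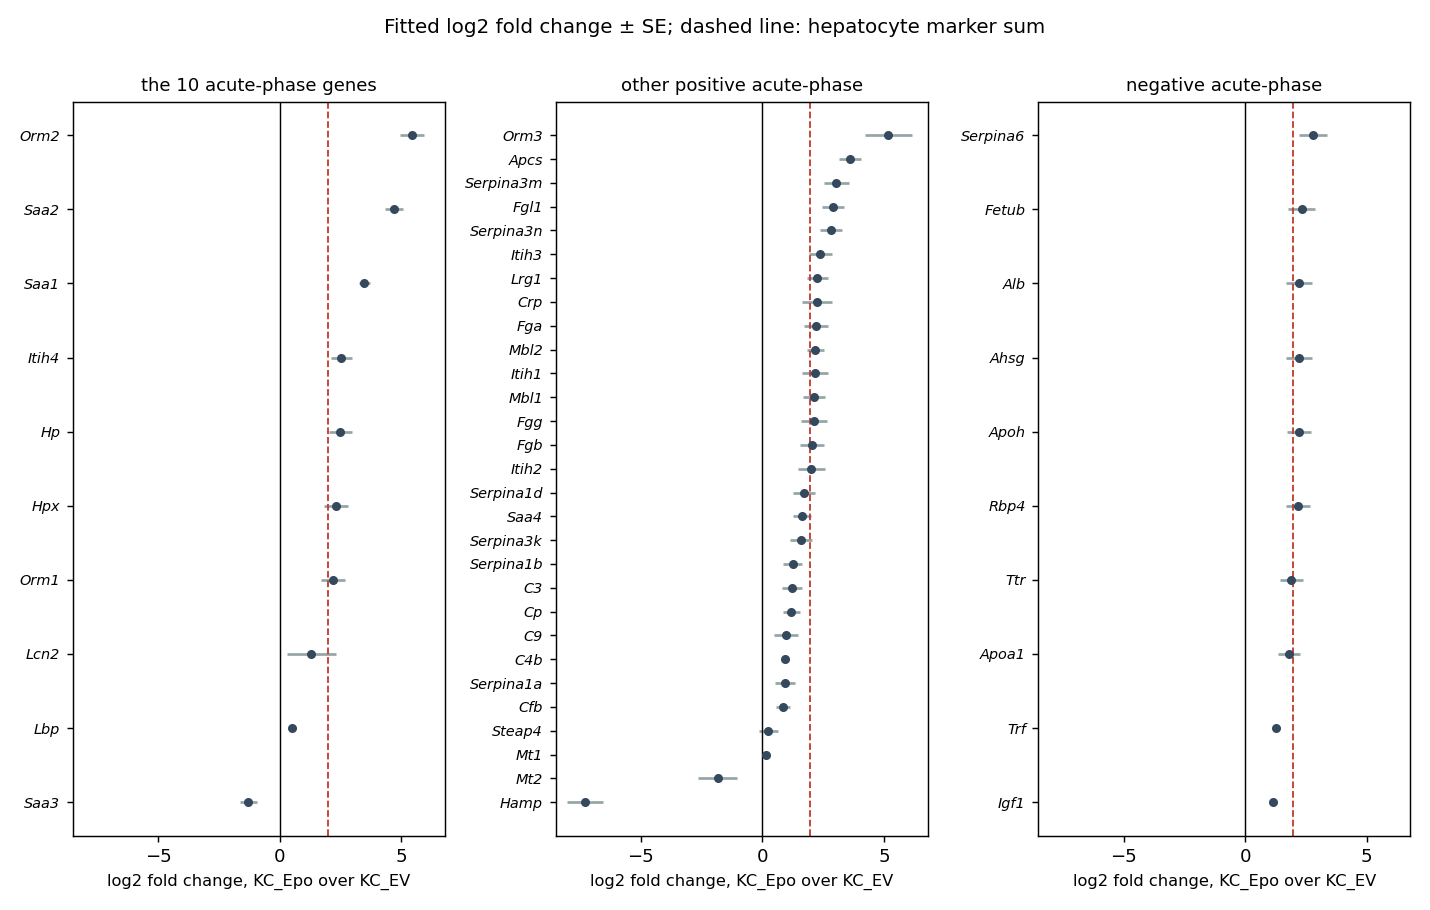
Fitted log2 fold change of KC_Epo over KC_EV ± SE for the 10 acute-phase genes, 29 other positive and 10 negative acute-phase genes, with a dashed line at the mean log2 difference of the hepatocyte marker sum (1.98). Fitted values follow the ratio of group means, which for the sum was 2.15 on the log2 scale, so genes near the edge of the range depend on the measure. Within 0.5 of the dashed line lie 13 of the 29 other positive genes (5 lie further right, 11 further left) and 7 of the 10 negative genes. Among those 7, Alb, Ttr, Apoa1 and Ahsg are themselves part of the sum, so their place within this range is not independent of the line. Of the 10 acute-phase genes, Orm1 and Hpx lie within that range. Orm2, Saa2 and Saa1 lie right of it, as do Itih4 and Hp by a small margin, and Lcn2, Lbp and Saa3 lie left of it.

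Of 26 inducers and signalling genes of the acute-phase response, 6 rose and 11 fell (65.4% past the threshold, against 32.3% of all genes tested). Tnf, with 48.2 ± 1.38 CPM in KC_Epo and 147 ± 9.60 CPM in KC_EV (SD, n = 3 each), and Il1b, with a log2 fold change of -1.29 ± 0.07, both fell (edgeR adjusted p = 7.36e-08 and 3.38e-07). Il6 rose by 0.40 ± 0.10 (edgeR adjusted p = 0.012), a call that was lost with library sizes as the only scaling (adjusted p = 0.0844). Il6ra, the IL-6 receptor, rose by 0.50 ± 0.08. Stat3 did not pass at 0.09 ± 0.07 (edgeR adjusted p = 0.328), nor did Socs3, a feedback inhibitor induced by STAT3, at 0.19 ± 0.16 (adjusted p = 0.411), though Socs3 passed without KC_Epo 2. Of the C/EBP factors, Cebpa rose by 1.00 ± 0.09, Cebpd had a log2 fold change of -0.37 ± 0.09 and fell, and Cebpb did not pass at 0.30 ± 0.13 (adjusted p = 0.0995), although it passed with DESeq2 and without KC_Epo 2. Nfkb1, a subunit of NF-kB, had a log2 fold change of -0.58 ± 0.06 and fell.

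Of 17 receptors and partners of these proteins, 7 rose and 4 fell (64.7% past the threshold, against 32.3% of all genes tested). Cd163, the receptor for haptoglobin bound to hemoglobin, rose by 1.11 ± 0.08 and Lrp1, the receptor for hemopexin bound to heme, by 0.53 ± 0.08. Hmox1, which breaks down heme, rose by 1.90 ± 0.08, and Slc48a1, a lysosomal heme transporter, by 1.57 ± 0.09. Slc22a17, a receptor for lipocalin 2, rose by 0.66 ± 0.09. Cd14, which receives lipopolysaccharide from Lbp, had a log2 fold change of -0.55 ± 0.09 and fell, while Ly96 at -0.05 ± 0.10 and Tlr4 at 0.13 ± 0.09 did not pass (edgeR adjusted p = 0.749 and 0.258). Tlr4 passed without KC_EV 1. Fpr2, a formyl peptide receptor that also binds serum amyloid A, had a log2 fold change of -1.23 ± 0.10 and fell.

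Genes outside the list with the profile most like a member were sought by Pearson correlation of log2 CPM over the 6 libraries among 10285 genes, as a description only, since all 6 values share the 2 groups. For Saa2 they were Gsk3b, Abca1, Sec31a, Nabp1 and Rab32 (r of 0.998 to 0.999), and for Saa3 they were Pdlim7, Ppp2r2d, Klhl3, Wbp4 and Ets1 (r of 0.997 to 0.999). For Lcn2 they were Dgkq, C2cd2l, Zfp729a, Adck5 and Slc39a13 (r of 0.986 to 0.995). The likeness is of pattern and not of size: Gsk3b had a log2 fold change of 0.49. Over the same 6 libraries, Hp correlated with Hpx at 0.996 and Saa1 with Orm2 at 0.998, while Saa3 correlated negatively with all 9 others, at -0.85 to -0.35. Those negative values describe the difference between the groups. Within KC_Epo, Saa3 had the same library order as all 9 others. Within KC_EV it had the order of Saa1, Orm1, Hpx, Lbp and Itih4, but not of Saa2, Orm2, Hp and Lcn2.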

How the data were processed

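Polyadenylated RNA of 6 libraries was made into stranded libraries, per the labels' protocols. Tools listed, without role or order, in the submitters' processing notes are HTSeq 0.11.2, STAR 2.7.3a, Bowtie2 2.5.1 and FastQC 0.11.8, with GRCm39 as build. The sources used here give no counting options. The authors deposited whole-number read counts per gene symbol, not normalized, in 15458 rows. Where a symbol stood on 2 rows (12 symbols), the larger row was taken as the gene. No library pair of a group agreed within sampling noise (lowest chi-square divided by the number of genes, 6.15).

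The count model was edgeR 4.0.16 under R 4.3.3, with filterByExpr (minimum count 10), TMM scaling, a robust quasi-likelihood fit of KC_Epo against KC_EV, and Benjamini-Hochberg adjustment over 13120 genes with a threshold of 0.05. The procedure was tested on simulated data with the same low dispersion for all genes. That setting was below the spread of most members within KC_Epo, so the test does not cover genes that variable. SEs come from the F statistic. P-values weigh the group difference against the spread between libraries, with each gene's spread drawn toward that of other genes. Intervals from counts cover counting error only. DESeq2 1.42.0, limma-voom (limma 3.58.1), other scalings and filters, a replicate block and leaving out each library were the alternatives. Members, lists, tests and alternatives were chosen with earlier results of these data known. Named genes were all members, the 4 smallest adjusted p of each list past the threshold, and a fixed set (Il6, Stat3, Socs3, Cebpb, Cebpd, Il6ra, Cd163, Lrp1, Cd14, Tlr4, Ly96, Slc22a17, Hmox1, Hamp, Serpina3n, Fgb, C3, Alb and Ttr), with others marked as chosen after their values were seen. Promoter windows come from RefSeq (GRCm38.p6), and transcript lengths and identities from GENCODE, on the same build (Biopython 1.88).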

Additional observations from a re-analysis of the deposited data

How the results depend on the processing

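The count of genes past the threshold ran from 2728 (without KC_Epo 3) to 4557 with 1 library left out. For the members the count ran from 3 to 9, for the other positive acute-phase genes from 6 to 25 and for the negative ones from 2 to 10. With the replicate block the counts were 3 of 10 members, 9 other positive and 2 negative genes, and 3358 genes passed. The labels give replicate numbers but state no pairing. Same-numbered deviations correlated at -0.108, -0.148 and -0.0407, which with 3 libraries per group cannot decide whether the numbers pair the libraries. The non-robust fit called 26 other positive genes. The causes were not tested, beyond the smaller number of samples when a library is left out. Library sizes as the only scaling moved the median of all genes to -0.16 (log2), the share of higher calls to 24.8% from 52.4%, and upper-quartile factors moved that share to 40.6%. With library sizes only, the log2 fold change of Lbp was 0.35. Inducer and receptor counts stayed within 14 to 20 and 10 to 12. Between 6 and 9 of the 10 members did not overlap relative to hepatocyte transcripts, over every denominator and omission, the sum without Alb (9) being added after seeing the data. The share of all genes on that scale was not computed. Counts of 37 to 41 in KC_EV limit the precision of Orm2 and Saa2.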

Other observations

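Of the 24 hepatocyte markers, 12 were higher in every KC_Epo library than in any KC_EV library, as were 24.1% of all genes tested. Cyp2e1, a cytochrome P450, had 235, 72.3 and 147 CPM in KC_Epo 1 to 3, against 17.0, 20.2 and 19.4 CPM in KC_EV 1 to 3, and Serpinc1, antithrombin, rose by 2.18 ± 0.51 on the log2 scale (SE, edgeR adjusted p = 0.0384). The other 12 overlapped between the groups. Ass1, of the urea cycle, was at -0.43 ± 0.45 on the same scale (edgeR adjusted p = 0.518) and Hnf4a, the hepatocyte transcription factor, at -0.14 ± 0.43 (edgeR adjusted p = 0.831). These genes were picked after their values were seen.

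Of the acute-phase metallothioneins, Mt2 had 390, 211 and 215 counts in KC_Epo 1 to 3 and 2275, 522 and 535 counts in KC_EV 1 to 3, so KC_EV 1 alone stood far above the rest, and the gene did not pass (log2 fold change -1.84 ± 0.80, edgeR adjusted p = 0.16). Mt2 passed without KC_EV 1, at a log2 fold change of -0.74, and also with DESeq2 and the non-robust fit. Mt1 averaged 133 CPM in KC_Epo and 120.04 CPM in KC_EV and did not pass (edgeR adjusted p = 0.173). Both were chosen after their values were seen.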
